A study of Homo sapiens with 8 samples.

Results

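The AP-1 family was taken here as 8 genes, FOS, FOSB, FOSL1, FOSL2, JUN, JUNB, JUND and ATF3, out of 60617 gene identifiers counted. They were chosen by family name, and with earlier results of these data known, ATF3 among them. Their levels and changes are therefore given as a description with no p-value, and nothing is supported with them. Each symbol matched 1 identifier, and all 8 genes passed the filter on low counts, with between 12 and 58528 counts in a library.

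The cells were HEK293T, a line derived from human embryonic kidney that carries adenovirus and SV40 genes, grown in DMEM with fetal bovine serum, and their poly(A) RNA was sequenced. The knockout groups were labelled sgKDM5C, sgKDM6A and sgKMT2B, each a derivative in which a guide was directed at the named gene, and the unedited line (WT) was the control. Each of the 4 groups had 2 libraries. KDM5C removes methyl groups from lysine 4 of histone H3, KDM6A removes them from lysine 27, and KMT2B adds them to lysine 4. The labels name no group with a non-targeting guide, and they do not say whether a knockout line was a single clone, so an effect of the targeted gene and an effect of deriving a line cannot be told apart. They also do not say that replicates were separate cultures, so the errors given measure the spread between these libraries, which may be technical.

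AP-1 is a dimer of proteins that share a basic region, which touches DNA, and a leucine zipper, which holds the pair together. JUN proteins can pair with each other, whereas FOS proteins need a JUN partner, and ATF3 pairs with itself or with JUN proteins. Serum and growth factor signals switch on FOS and several other members within minutes, stress kinases act on JUN, and stress of many kinds switches on ATF3. AP-1 dimers bind TGANTCA, and dimers with ATF proteins bind the related TGACGTCA. JUN is known to act on its own promoter through such a site.

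Total counts ran between 15868353 and 27591724 per library, the lowest in WT replicate 2, and 3 counts corresponded to between 0.107 and 0.195 CPM, the count scaled to a common library total. The targeted genes were each lower in their own knockout than in WT by edgeR's quasi-likelihood test. KDM5C had 321 ± 13.4 CPM in sgKDM5C and 456 ± 21.6 CPM in WT (SD, n = 2 libraries each; log2 change -0.50, adjusted p = 0.00109). KDM6A had 10.9 ± 0.84 CPM in sgKDM6A and 57.7 ± 4.93 CPM in WT (log2 change -2.40, adjusted p = 9.38e-08). KMT2B had 69.3 ± 8.86 CPM in sgKMT2B, against 141 ± 6.26 CPM in the WT line (log2 change -1.03, adjusted p = 2.44e-05). A guide can disrupt a protein without removing its transcript, so these levels check the labels in part. Of the defining kidney lineage markers PAX8 had no counts in sgKDM6A or WT, and of the epithelial markers KRT19 had none in WT.

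The sequence before the start site of a gene is among the places where signals act on it. The promoters of the 5 genes whose levels the results turn on, or that serve as their contrast, are therefore shown. The windows searched are the 250 bases upstream of the RefSeq start in GRCh38.p14. GENCODE v29 places the start of some of these genes further upstream, so that exons in it cover all 250 bases of the JUN window, 73 bases of the ATF3 window and 35 bases of the FOSL2 window, and none of the JUND and JUNB windows. Shown are the longest run of each window outside those exons and, for JUN, the 30 bases around its match. Capitals mark letters that match TGACNTCA or TGACG on either strand. The stretches are chr1:58784096-58784125 (minus strand) for JUN, chr1:212565157-212565333 (plus strand) for ATF3, chr19:18281623-18281872 (minus strand) for JUND, chr2:28392608-28392801 (plus strand) for FOSL2 and chr19:12791236-12791485 (plus strand) for JUNB.
JUN: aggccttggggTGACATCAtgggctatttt
ATF3: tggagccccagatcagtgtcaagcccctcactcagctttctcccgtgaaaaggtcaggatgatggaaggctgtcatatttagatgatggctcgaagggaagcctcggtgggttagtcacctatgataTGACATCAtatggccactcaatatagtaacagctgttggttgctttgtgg
JUND: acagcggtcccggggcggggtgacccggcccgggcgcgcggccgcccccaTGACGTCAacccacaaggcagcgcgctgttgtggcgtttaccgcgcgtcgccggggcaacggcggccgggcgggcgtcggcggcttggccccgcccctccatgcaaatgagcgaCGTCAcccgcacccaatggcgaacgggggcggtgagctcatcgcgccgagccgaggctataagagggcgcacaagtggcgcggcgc
FOSL2: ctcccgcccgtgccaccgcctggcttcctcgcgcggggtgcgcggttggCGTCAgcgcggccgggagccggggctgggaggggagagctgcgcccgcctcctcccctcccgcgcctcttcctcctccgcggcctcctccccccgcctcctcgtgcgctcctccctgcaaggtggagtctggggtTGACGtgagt
JUNB: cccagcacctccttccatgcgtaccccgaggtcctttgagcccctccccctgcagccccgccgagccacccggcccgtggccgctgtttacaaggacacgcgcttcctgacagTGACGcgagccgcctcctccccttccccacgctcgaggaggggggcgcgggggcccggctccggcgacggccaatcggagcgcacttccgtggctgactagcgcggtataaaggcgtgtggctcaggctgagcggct

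Promoters of 7 of the 8 genes matched the table, FOSL1 being the exception, and ATF3 had 2 windows, of which the upstream one is shown. TGACNTCA stood in 3 of these 8 windows. It read TGACATCA 67 bases before the start of JUN and 123 bases before the upstream start of ATF3, and TGACGTCA 200 bases before the start of JUND. Of all 35116 promoters in the table, 6.87% held TGACNTCA and 1.65% held TGACGTCA. The shorter TGACG, which overlaps TGACGTCA, stood in 6 of the 8 windows and in 21.2% of all promoters. It lay 123 bases before the start in JUN, 66 and 201 bases in FOSL2, 137 bases in JUNB, 64 bases in FOS and 60 bases in FOSB. In JUND it lay at 200 and 197 bases, as part of TGACGTCA, and again at 86 bases. TGANTCA, in 6.57% of all promoters, and the CArG box bound by SRF, in 1.16%, had no match in these 8 windows. Sites further than 250 bases before the start, in FOS as in the others, were not searched. TGACNTCA and TGACG were added to the search after the letters of the windows had been seen. Nothing is therefore read from their counts in these windows beside their shares of all promoters. JUNB, whose level differed least between groups, and FOSL2, which was lower in each knockout than in WT, both held TGACG, so the search did not separate them. The GC content was 62% in JUN, 49.2% in the upstream ATF3 window, 74.8% in JUND, 69.6% in FOSL2 and 70.8% in JUNB, against a median of 58% over all promoters.

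JUN, JUND, FOSL2 and ATF3 had lower levels in every knockout library than in either WT library, whereas JUNB, FOSB and FOSL1 were not called in any knockout and FOS differed between knockouts. Levels are CPM scaled with TMM factors. A gene was called where its change passed an adjusted p of 0.05 in edgeR's quasi-likelihood test over all 17527 genes tested. In sgKDM5C against WT, 5 of the 8 genes were called and each was lower, while 22.6% of all genes tested were called, 11.1% as higher and 11.5% as lower. The 5 were FOS, FOSL2, JUN, JUND and ATF3. In sgKDM6A against WT, 4 genes were called, FOSL2, JUN, JUND and ATF3, and each was lower. Here 27.2% of all genes were called, 12.6% as higher and 14.6% as lower. In sgKMT2B against WT, 4 genes were called, FOS, FOSL2, JUN and ATF3, and each was lower. Here 28.1% of all genes were called, 13.7% as higher and 14.5% as lower. The members' median log2 change against WT was -1.33 in sgKDM5C, -0.95 in sgKDM6A and -0.94 in sgKMT2B, while the medians over all genes tested were 0.0221, 0.00581 and 0.00101 in the same order. Because the genes were chosen with results of these comparisons known, nothing is read from these counts against that background. The 3 comparisons share the same 2 WT libraries, so a chance deviation of WT enters each of them. In RNA from whole cultures, fewer cells expressing a gene and less RNA per cell cannot be told apart.

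**Figure D1:**
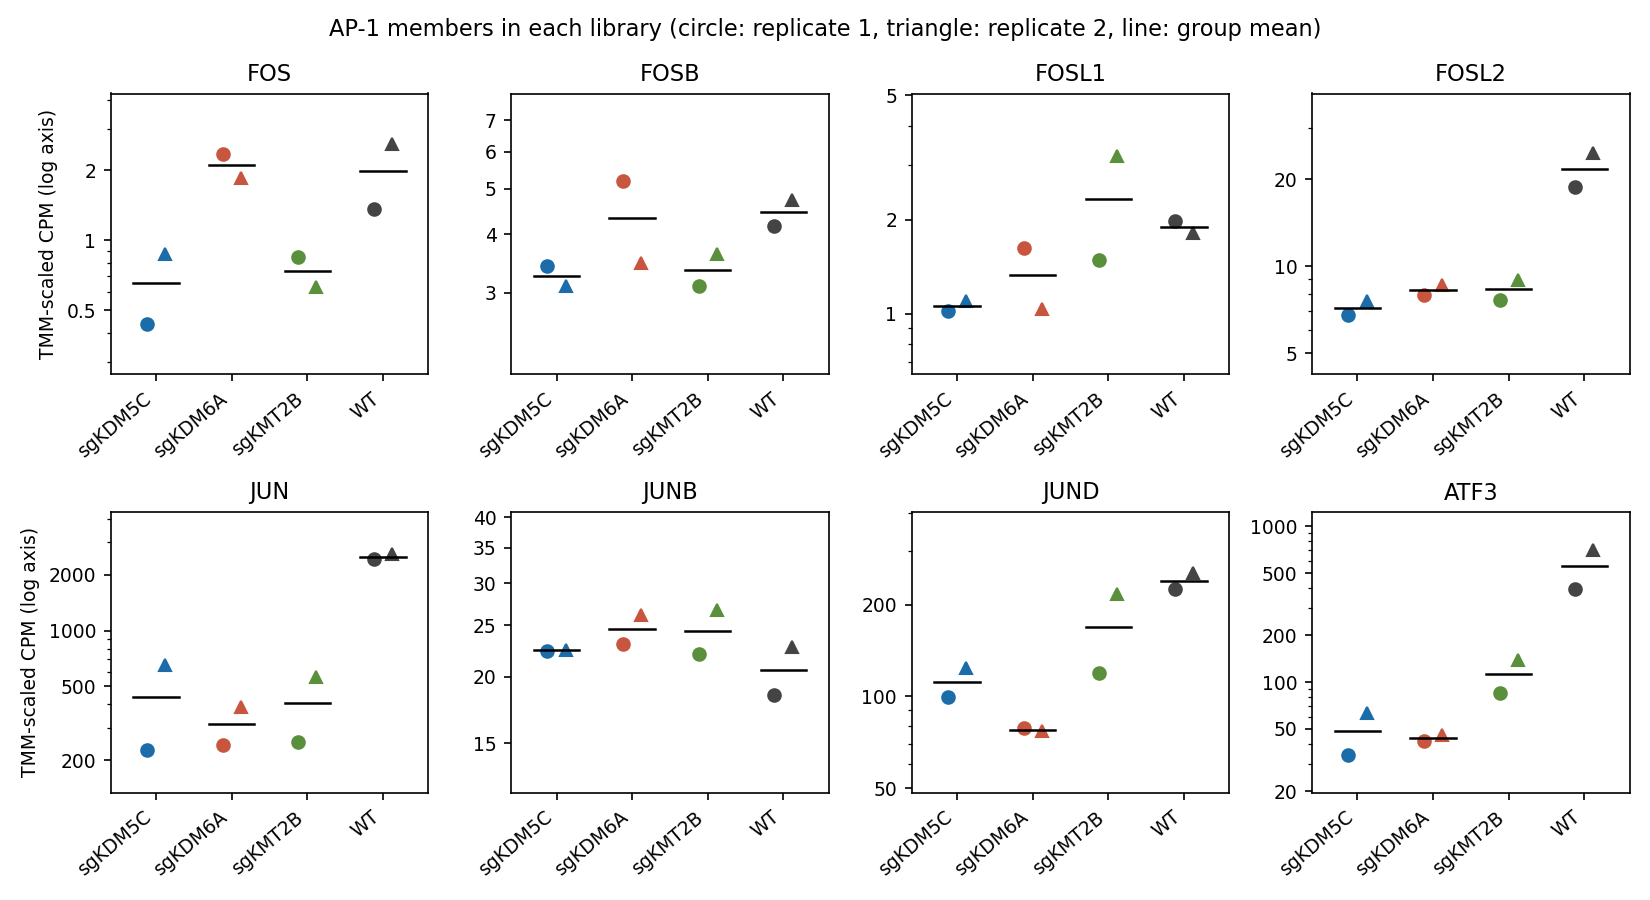
TMM-scaled CPM (log axis, its range set per gene) of each AP-1 gene in each library of sgKDM5C, sgKDM6A, sgKMT2B and WT, with circles for replicate 1, triangles for replicate 2 and a line at the group mean. JUN in the 6 knockout libraries lies between 227 and 654 CPM, and the WT libraries lie at 2418 and 2568 CPM, while the JUNB panel spans only 18.5 to 26.8 CPM.

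JUN, the founding member and the partner that most AP-1 dimers contain, was the most abundant of the 8 in TPM, a level per length of gene. The gene lies on chromosome 1 at 58780788 to 58784327 (GRCh38, minus strand). It had 227 and 654 CPM in sgKDM5C, 243 and 388 CPM in sgKDM6A, and 249.8 and 564 CPM in sgKMT2B, against 2418 and 2568 CPM in WT. The lowest WT library was thus far above the highest knockout library, and the knockouts overlapped one another. JUN fell in each knockout against WT, with log2 changes of -2.50 (SE 0.41) in sgKDM5C, -2.98 (SE 0.42) in sgKDM6A and -2.62 (SE 0.42) in sgKMT2B, or 5.66-fold, 7.90-fold and 6.13-fold lower. The 2 libraries of a knockout differed far more from each other for JUN than for most genes. Their ratio was 2.88 for sgKDM5C, 1.60 for sgKDM6A, 2.26 for sgKMT2B and 1.06 for WT, and replicate 2 was the higher library in each group. Over 11249 genes with at least 5 CPM the median ratio lay between 1.08 and 1.12 in the 4 groups, and its 95th percentile between 1.29 and 1.46. Leaving out 1 library moved the size of the change and not its call. In sgKDM5C the log2 change was -1.93 without replicate 1 and -3.47 without replicate 2, and in sgKMT2B it was -3.32 without replicate 2. Among 19922 protein-coding genes ordered by TPM, JUN stood at place 243 for sgKDM5C, 421 for sgKDM6A, 297 for sgKMT2B and 32 for WT.

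JUND, a JUN protein that is expressed at a steady level in many resting cells, lies on chromosome 19 at 18279760 to 18281622 (minus strand). It had 99.2 and 124 CPM in sgKDM5C, 78.8 and 76.9 CPM in sgKDM6A, and 119 and 218 CPM in sgKMT2B, against 225 and 254 CPM in WT. All 6 knockout libraries were below both WT libraries, and replicate 2 of sgKMT2B was the closest to the lower WT library. JUND fell in sgKDM5C (log2 change -1.10, SE 0.20) and in sgKDM6A (-1.62, SE 0.21), and in sgKMT2B its log2 change of -0.51 (SE 0.20) was not called. That last value rested on replicate 2, without which it was -1.001 and called, and it was also called with the replicate number as a block (-0.54). With no filter on low counts it was called too (-0.49). The adjusted p-values of JUND, JUN and ATF3 against WT were far smaller in that fit at nearly the same log2 changes, so nothing is read from that call.

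JUNB, which is induced by growth factors and is known to oppose JUN at some promoters, lies on the same chromosome at 12791496 to 12793315 (plus strand), where it overlaps HOOK2 on the other strand. It had 22.4 and 22.5 CPM in sgKDM5C, 23.1 and 26.2 CPM in sgKDM6A, and 22.1 and 26.8 CPM in sgKMT2B, against 18.5 and 22.7 CPM in WT. Both sgKDM6A libraries were above those of WT and of sgKDM5C, and the other pairs of groups overlapped. The log2 changes of 0.13 (SE 0.15) in sgKDM5C, 0.26 (SE 0.15) in sgKDM6A and 0.25 (SE 0.15) in sgKMT2B were not called, and the highest and lowest group means differed 1.19-fold. The strand setting of the counting is not given, so reads of JUNB and HOOK2 in the shared stretch cannot be told apart, and the same holds for FOSB with ERCC1 and for FOSL2 with FOSL2-AS1.

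Among the FOS proteins, FOSL2, which differs from FOS in lacking its strong activation domain and is usually induced later, had the largest mean share of the family's TPM in each group. In sgKMT2B its lead over FOSL1 was small (0.503% against 0.488%), and the mean TPM of FOSL1 was the higher one there (4.58 against 4.30). FOSL2 lies on chromosome 2 at 28392448 to 28417312 (plus strand). It had 6.77 and 7.61 CPM in sgKDM5C, 7.93 and 8.61 CPM in sgKDM6A, and 7.63 and 8.99 CPM in sgKMT2B, against 18.8 and 24.7 CPM in WT. The knockouts lay close together, all below WT. FOSL2 fell in sgKDM5C (log2 change -1.59, SE 0.18), sgKDM6A (-1.39, SE 0.18) and sgKMT2B (-1.38, SE 0.18), and these calls held under each alternative tried.

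FOS, the partner that gives AP-1 its rapid response to serum, had few counts. The gene lies on chromosome 14 at 75278774 to 75282230 (plus strand). It had 0.437 and 0.870 CPM in sgKDM5C, 2.34 and 1.86 CPM in sgKDM6A, and 0.844 and 0.631 CPM in sgKMT2B, against 1.36 and 2.60 CPM in WT. Those values came from 12 and 23 counts for sgKDM5C, 59 and 52 for sgKDM6A, 21 and 16 for sgKMT2B, and 33 and 40 for WT. The sgKDM6A libraries lay between the WT libraries, and the libraries of sgKDM5C and sgKMT2B lay below both. FOS fell in sgKDM5C (log2 change -1.57, SE 0.47) and in sgKMT2B (-1.39, SE 0.47), and in sgKDM6A its log2 change was 0.11 (SE 0.43). Both calls depended on single libraries. In sgKDM5C the call was lost without WT replicate 2 (-1.07) or without sgKDM5C replicate 1 (-1.15), and the value was -2.15 without sgKDM5C replicate 2. In sgKMT2B the call was lost without WT replicate 2 (-0.88), without sgKMT2B replicate 1 (-1.61) or without sgKMT2B replicate 2 (-1.19).

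FOSB and FOSL1 had no call in any comparison with WT. FOSB, a close relative of FOS on chromosome 19 at 45467995 to 45475179 (plus strand), had 3.42 and 3.10 CPM in sgKDM5C, 5.19 and 3.47 CPM in sgKDM6A, and 3.09 and 3.63 CPM in sgKMT2B, against 4.17 and 4.74 CPM in WT. Its log2 changes were -0.44 (SE 0.27), -0.04 (SE 0.26) and -0.40 (SE 0.27) in sgKDM5C, sgKDM6A and sgKMT2B. FOSL1, which is raised by RAS and ERK signalling in many tumours, lies on chromosome 11 at 65892049 to 65900573 (minus strand). It had 1.02 and 1.10 CPM in sgKDM5C, 1.63 and 1.04 CPM in sgKDM6A, and 1.49 and 3.19 CPM in sgKMT2B, against 1.98 and 1.82 CPM in WT. Its sgKDM5C and sgKDM6A libraries were below WT and its sgKMT2B libraries lay on either side of WT, with log2 changes of -0.85 (SE 0.42), -0.52 (SE 0.42) and 0.30 (SE 0.40). FOSL1 had 28 to 81 counts in a library and FOSB 73 to 131, and smaller changes than these errors allow were not detectable at this depth.

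ATF3, which represses or activates its targets depending on its partner, had the largest fall of the 8 in sgKDM5C and in sgKDM6A. The gene lies on chromosome 1 at 212565334 to 212620777 (plus strand). It had 34.1 and 62.9 CPM in sgKDM5C, 41.8 and 45.5 CPM in sgKDM6A, and 85.7 and 139 CPM in sgKMT2B, against 398 and 707 CPM in WT. Both sgKMT2B libraries were above all libraries of the other knockouts and below both WT libraries. ATF3 fell in sgKDM5C (log2 change -3.51, SE 0.31), sgKDM6A (-3.66, SE 0.31) and sgKMT2B (-2.29, SE 0.29), or 11.4-fold, 12.6-fold and 4.90-fold lower. The WT libraries themselves differed 1.78-fold. Without WT replicate 2 the log2 changes were -3.05, -3.19 and -1.82 in the same order, and each was still called. Its place by TPM among protein-coding genes was 3706 for sgKDM5C, 4143 for sgKDM6A, 1703 for sgKMT2B and 251 for WT.

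**Figure D2:**
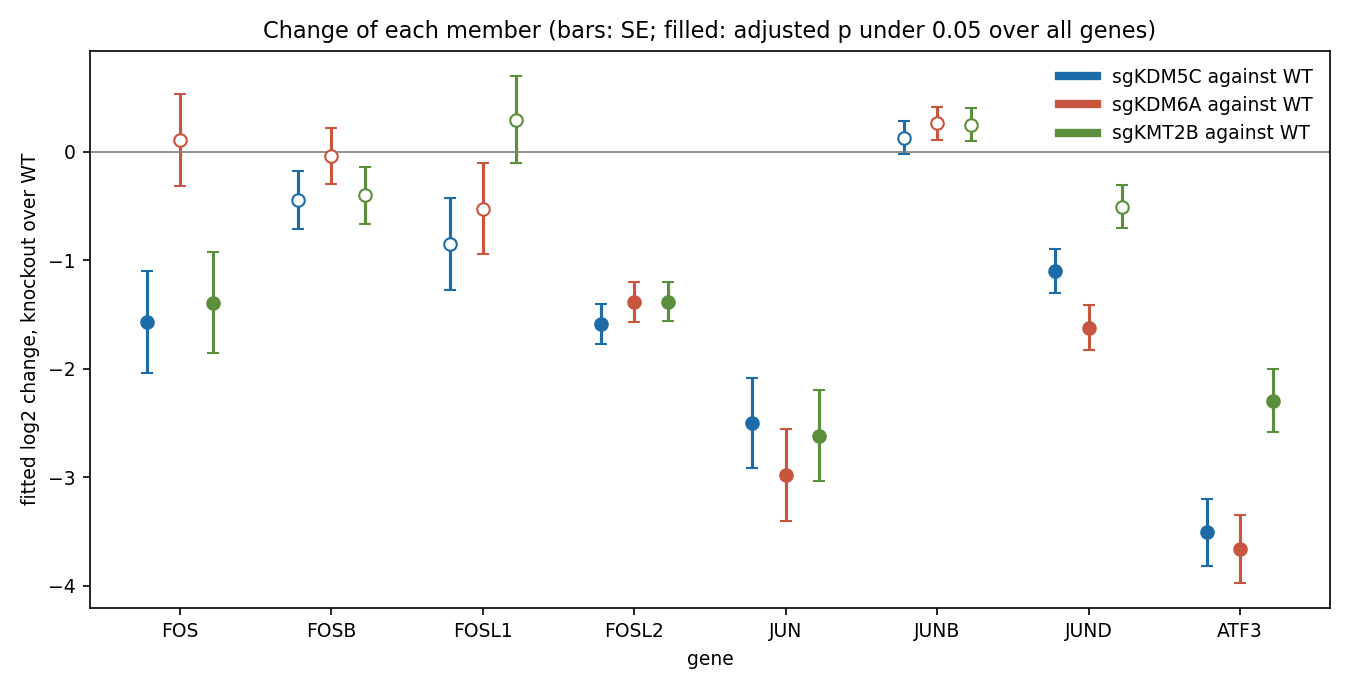
Fitted log2 change of each AP-1 gene in sgKDM5C, sgKDM6A and sgKMT2B against WT, with error bars of 1 SE, filled points for called changes and open points for the others. ATF3, JUN and FOSL2 lie below 0 with filled points in each knockout, and JUNB lies slightly above 0 with open points.

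The members were also set beside the genes around them. Over genes with at least 5 CPM, the median log2 change against WT of the chromosomes that carry the 8 genes lay between -0.131 and 0.0911. Within 1 Mb of ATF3, the 15 neighbours measured had median log2 changes of 0.129 in sgKDM5C, 0.247 in sgKDM6A and 0.437 in sgKMT2B. Within 1 Mb of JUN there were 2 such neighbours, with medians of 0.15, 0.324 and -0.101. The 52 neighbours of JUND had medians of -0.29, -0.243 and -0.00866, and the 13 neighbours of FOSL2 had medians of -0.38, 0.188 and 0.104.

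The summed level of the family, in TPM so that genes of different length can be added, was 546 and 1124 for sgKDM5C, 516 and 689 for sgKDM6A, and 639 and 1210 for sgKMT2B, against 3316 and 3903 for WT. Every knockout library was below every WT library. JUN made up 55.6% ± 14.1 of the sum for sgKDM5C, 55.5% ± 7.90 for sgKDM6A, 44.9% ± 4.96 for sgKMT2B and 71.6% ± 4.04 for WT (SD, n = 2 libraries each). JUND made up 30.8% ± 10.1, 26.9% ± 5.47 and 36.5% ± 1.42 in the knockouts in the same order, and 13.1% ± 0.186 in WT. JUNB made up 6.58% ± 3.09, 8.62% ± 0.847 and 5.79% ± 1.87, and 1.15% ± 0.0537 in WT. ATF3 made up 5.77% ± 0.339, 6.89% ± 0.881 and 11.5% ± 1.38, and 13.7% ± 4.14 in WT. The 4 FOS genes together made up 1.24% ± 0.507, 2.14% ± 0.702 and 1.36% ± 0.292, and 0.552% ± 0.0335 in WT. In transcripts the family was thus made up mostly of JUN proteins in each group, with 93.0% ± 0.845 in sgKDM5C, 91.0% ± 1.58 in sgKDM6A, 87.2% ± 1.67 in sgKMT2B and 85.8% ± 4.17 in WT. These are shares of RNA, and protein levels and dimers were not measured.

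**Figure D3:**
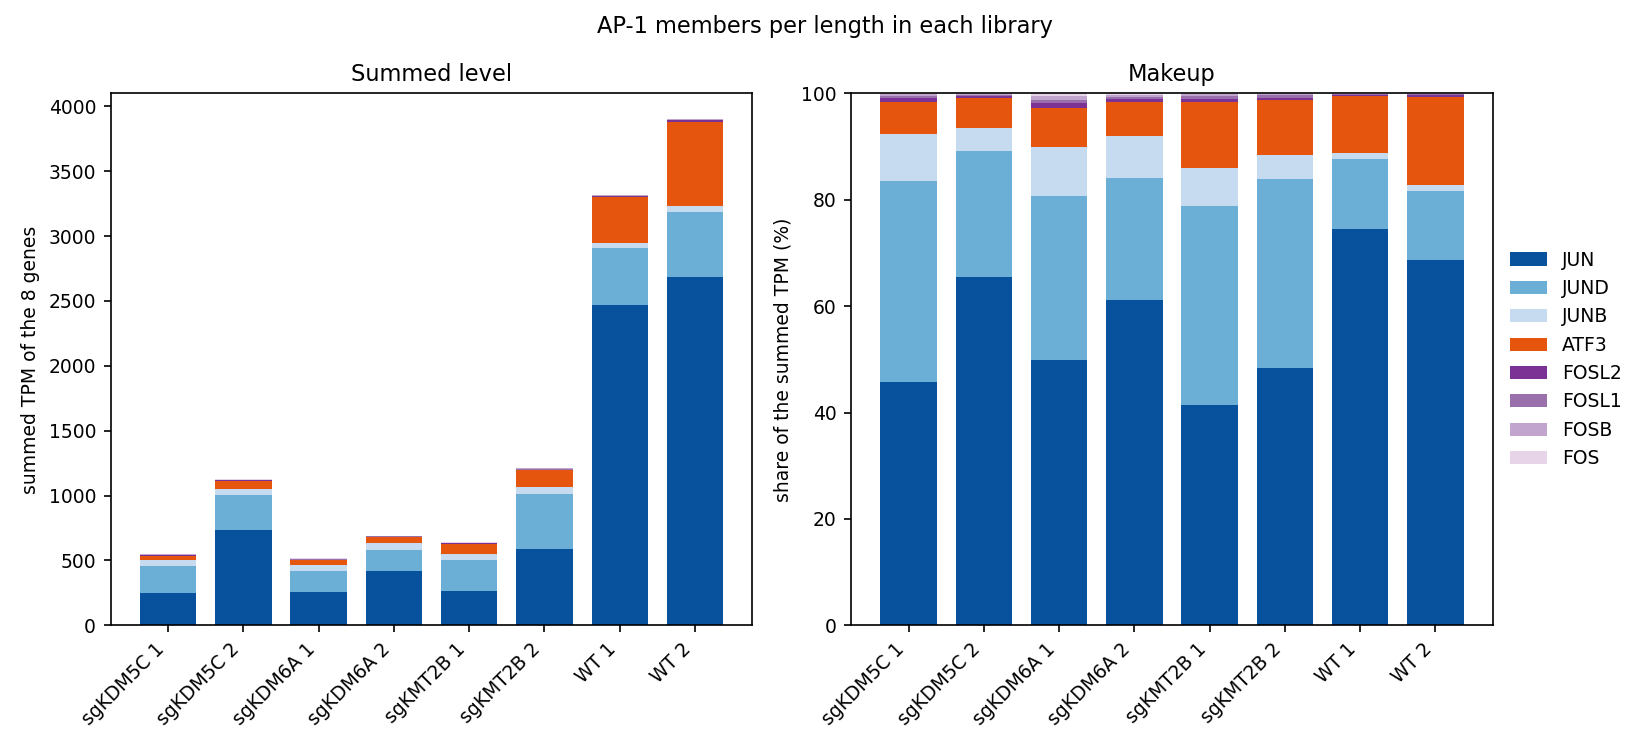
Stacked bars for each library of sgKDM5C, sgKDM6A, sgKMT2B and WT, with the summed TPM of the 8 AP-1 genes on the left and the share of that sum in percent held by each gene on the right. The knockout sums average 835, 603 and 924 TPM and the WT sum 3610 TPM, with JUN as the largest part in each library.

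Set against one another, the knockouts differed in FOS, JUND and ATF3. In sgKDM5C against sgKDM6A, 1 of the 8 genes was called, where 19.8% of all genes tested were called. It was FOS, lower in sgKDM5C (log2 change -1.68, SE 0.46), and the call was lost without sgKDM5C replicate 1 (-1.27) or sgKDM6A replicate 1 (-1.51). In sgKDM5C against sgKMT2B, 2 genes were called, where 22.1% of all genes were called. ATF3 was lower in sgKDM5C (log2 change -1.22, SE 0.29), a call lost without sgKDM5C replicate 1 (-0.84), without sgKMT2B replicate 2 (-0.83) and with DESeq2. JUND was also lower (log2 change -0.60, SE 0.20) although its libraries overlapped, and its value was -0.10 without sgKMT2B replicate 2 and -0.45 without sgKDM5C replicate 1, neither of them called. In sgKDM6A against sgKMT2B, 3 genes were called, where 24.9% of all genes were called. JUND (log2 change -1.12, SE 0.20) and ATF3 (-1.37, SE 0.29) were lower in sgKDM6A, with no overlap between the libraries. FOS was higher in sgKDM6A (log2 change 1.502, SE 0.45), and leaving out any 1 of the 4 libraries kept its value between 1.31 and 1.72 and lost the call. JUN was not called between any 2 knockouts, with log2 changes of 0.48, 0.11 and -0.37 in the same order, and its change in sgKDM5C against sgKDM6A was 1.05 and called without sgKDM5C replicate 1. The order of the group means was WT, sgKMT2B, sgKDM5C and sgKDM6A for both ATF3 and JUND. For ATF3 the libraries of sgKDM5C and sgKDM6A overlapped, and for JUND those of sgKMT2B and sgKDM5C did, while the other neighbours in that order did not overlap. For JUN the order was WT, sgKDM5C, sgKMT2B and sgKDM6A, and for FOSL2 it was WT, sgKMT2B, sgKDM6A and sgKDM5C. For FOS it was sgKDM6A, WT, sgKMT2B and sgKDM5C, with overlap between sgKDM6A and WT and between sgKMT2B and sgKDM5C. For FOSL1 it was sgKMT2B, WT, sgKDM6A and sgKDM5C, with overlap between sgKMT2B and WT and between sgKDM6A and sgKDM5C, and for FOSB and JUNB all neighbours overlapped.

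The patterns of the members over the 8 libraries were compared pair by pair. Pearson's r of log2(CPM + 1) was 0.945 between FOSL2 and ATF3, 0.932 between FOSL2 and JUN, 0.921 between JUN and ATF3, 0.913 between JUND and ATF3, 0.827 between JUN and JUND and 0.764 between FOSL2 and JUND. It was 0.763 between FOS and FOSB and -0.422 between JUN and JUNB. These values describe 8 libraries in 4 groups, where a gap between WT and the knockouts alone gives a high r. Among 10688 other protein-coding genes with at least 5 CPM, those nearest in pattern to ATF3 were GATAD1 (r = 0.995), SYNPO (0.994) and CA12 (0.992). Nearest to JUN were HAPLN2 (0.987), MAST1 (0.987) and ERN1 (0.986). Nearest to FOSL2 were GABARAPL1 (0.995), SMS (0.989) and ANGEL1 (0.986), and nearest to JUND were PDZD7 (0.983), DUSP10 (0.980) and DVL2 (0.979).

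The immediate early genes, which serum switches on together with FOS and JUN, had more members called as lower than as higher in each knockout. Of the 32 on the list, none of them a member, 29 were tested. In sgKDM5C 2 rose and 13 fell, where 11.1% of all genes tested were called as higher and 11.5% as lower. In sgKDM6A 2 rose and 17 fell (12.6% and 14.6% of all genes), and in sgKMT2B 4 rose and 16 fell (13.7% and 14.5% of all genes). The list was chosen with earlier results known. It had median log2 changes of -0.70, -0.72 and -1.01, beside medians near 0 over all genes tested. CCN1, a secreted matrix protein, had 51.9 ± 6.68 CPM in sgKDM5C, 27.1 ± 0.298 CPM in sgKDM6A and 42.3 ± 6.18 CPM in sgKMT2B, against 284 ± 40.6 CPM in WT (SD, n = 2 libraries each). It fell in each, with log2 changes of -2.45, -3.39 and -2.75 (adjusted p = 4.76e-07, 5.53e-09 and 3.03e-08). GADD45A, a stress gene that restrains the cell cycle, had 36.5 ± 4.27, 25.0 ± 2.05 and 51.5 ± 3.19 CPM in the knockouts in the same order, against 131 ± 18.1 CPM in WT, and fell in each (log2 changes -1.85, -2.39 and -1.35, adjusted p = 4.90e-06, 1.04e-07 and 9.88e-06). MYC, a growth regulator, had 74.6 ± 0.245 CPM in sgKDM5C and 481 ± 126 CPM in WT (log2 change -2.69, adjusted p = 5.86e-07). MYC was also called as lower in sgKDM6A (248 ± 27.3 CPM, log2 change -0.95, SE 0.15). CCN2, a relative of CCN1, had 4.13 ± 0.888 CPM in sgKDM6A and 25.7 ± 1.81 CPM in WT (log2 change -2.64, adjusted p = 7.66e-07). DUSP1, a phosphatase that switches off the kinases upstream of AP-1, had 49.2 ± 15.4 CPM in sgKMT2B, against 207 ± 59.7 CPM in the WT line (log2 change -2.07, adjusted p = 2.84e-05). DUSP1 was also called as lower in sgKDM5C (34.9 ± 7.82 CPM, log2 change -2.56, SE 0.23) and in sgKDM6A (31.7 ± 4.19 CPM, log2 change -2.705, SE 0.23). EGR1, a zinc finger factor induced beside FOS and chosen here after its values were seen, went the other way. It had 3.79 and 4.46 CPM in sgKDM5C, 7.41 and 8.29 CPM in sgKDM6A, and 3.70 and 4.85 CPM in sgKMT2B, against 1.94 and 1.95 CPM in WT. EGR1 rose by 1.08, 2.01 and 1.13 on the log2 scale (adjusted p = 0.00866, 9.42e-05 and 0.00501), and in sgKDM5C the adjusted p was 0.0511 without replicate 2. The SE of the log2 changes given with an adjusted p here and for the other lists lay between 0.11 and 0.43.

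Genes of the signal routes to the members were called in both directions, and nothing is read from the counts of these short lists. Of 29 upstream kinases, all tested, 5 rose and 4 fell in sgKDM5C, 3 rose and 6 fell in sgKDM6A, and 6 rose and 3 fell in sgKMT2B, beside 22.6%, 27.2% and 28.1% of all genes tested called in the same order. MAP2K1, which activates ERK, had 51.3 ± 3.79 CPM in sgKDM5C and 50.9 ± 0.80 CPM in sgKMT2B, against 81.8 ± 9.75 CPM in WT, and fell in both (log2 changes -0.67 and -0.68, adjusted p = 0.00131 and 0.00068). RPS6KA2, a kinase of the RSK family, had 36.0 ± 2.36 CPM in sgKDM6A and 73.0 ± 8.12 CPM in WT (log2 change -1.02, adjusted p = 4.61e-05). RPS6KA2 was also called as lower in sgKDM5C (56.6 ± 1.23 CPM, log2 change -0.37, SE 0.11). MAPK8, the JUN kinase JNK1, was not called, with 38.3 ± 2.64 CPM in sgKDM5C, 42.8 ± 0.962 CPM in sgKDM6A, 33.2 ± 0.447 CPM in sgKMT2B and 35.3 ± 0.214 CPM in WT. Of SRF and the factors that work with it, 14 of 15 were tested, and 1 rose and 2 fell in sgKDM5C, 2 rose and 4 fell in sgKDM6A, and 4 rose and 1 fell in sgKMT2B, beside the same shares. SRF itself, which binds the FOS promoter, was not called, with 99.4 ± 12.2, 122 ± 16.9 and 106 ± 15.3 CPM in the knockouts and 103 ± 9.87 CPM in WT. MRTFB, an actin-regulated partner of SRF, had 28.8 ± 2.04 CPM in sgKDM5C and 31.0 ± 4.98 CPM in sgKMT2B, against 18.6 ± 0.225 CPM in WT, and rose by 0.64 and 0.74 (adjusted p = 0.00687 and 0.00193). MRTFB was also called as higher in sgKDM6A (25.1 ± 0.15 CPM, log2 change 0.44, SE 0.14). MEF2D was called as lower in sgKDM5C (log2 change -0.84, SE 0.15) and sgKDM6A (-0.76, SE 0.15). MRTFA was called as lower in sgKDM6A (log2 change -0.82, SE 0.11). MEF2C was called as higher in sgKDM6A (log2 change 1.06, SE 0.16) and sgKMT2B (0.70, SE 0.17).

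Genes of the stress responses that switch on ATF3 moved in both directions. Of 16, all tested, 4 rose and 3 fell in sgKDM5C, 4 rose and 7 fell in sgKDM6A, and 6 rose and 2 fell in sgKMT2B, beside 22.6%, 27.2% and 28.1% of all genes tested called. CHAC1, a glutathione-degrading enzyme downstream of the ATF4 response, had 25.5 ± 11.7 CPM in sgKDM5C, 21.3 ± 13.9 CPM in sgKDM6A and 58.6 ± 9.49 CPM in sgKMT2B, against 3.48 ± 0.312 CPM in WT. It rose by 2.88, 2.61 and 4.08 on the log2 scale (adjusted p = 0.000651, 0.000767 and 2.39e-05), while ATF3 was lower in each knockout. Among the knockouts, sgKMT2B had the highest mean of CHAC1 and also of ATF3 (113 CPM). A link between these genes was not tested. SESN2, a stress-induced inhibitor of mTORC1, had 223 ± 56.8 CPM in sgKDM5C and 274 ± 41.6 CPM in sgKMT2B, against 92.2 ± 10.4 CPM in WT, and rose by 1.28 and 1.57 (adjusted p = 0.000487 and 5.26e-05). TRIB3, a pseudokinase of the same response, had 109 ± 8.51 CPM in sgKMT2B, against 40.7 ± 0.464 CPM in the WT line (log2 change 1.43, adjusted p = 0.000104). TRIB3 was also called as higher in sgKDM5C (61.5 ± 15.2 CPM, log2 change 0.60, SE 0.18). PPP1R15A, which reverses the block of translation in stress, had 42.5 ± 0.516 CPM in sgKDM5C, 32.9 ± 3.05 CPM in sgKDM6A and 49.8 ± 3.18 CPM in sgKMT2B, against 113 ± 38.3 CPM in WT. It fell in each, with log2 changes of -1.40, -1.77 and -1.17 (adjusted p = 0.000209, 2.14e-05 and 0.000334).

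Other basic leucine zipper proteins that can pair with the family moved in both directions. Of 27, 26 were tested, and 5 rose and 5 fell in sgKDM5C, 3 rose and 9 fell in sgKDM6A, and 10 rose and 7 fell in sgKMT2B, beside 22.6%, 27.2% and 28.1% of all genes tested called. MAFF, a small MAF protein without an activation domain, had 3.46 ± 0.668, 2.66 ± 0.23 and 3.42 ± 0.348 CPM in sgKDM5C, sgKDM6A and sgKMT2B, against 10.4 ± 2.36 CPM in WT, and fell in each (log2 changes -1.58, -1.96 and -1.60, adjusted p = 0.00082, 0.000125 and 0.000415). CREB5, a relative of ATF2 that pairs with JUN, had 19.7 ± 3.94, 24.0 ± 3.21 and 33.8 ± 6.16 CPM, against 53.2 ± 0.75 CPM in WT, and fell in each (log2 changes -1.44, -1.14 and -0.65, adjusted p = 0.00014, 0.000294 and 0.00933). JDP2, a repressor that pairs with JUN, had 19.0 ± 5.42 CPM in sgKDM5C and 26.5 ± 6.38 CPM in sgKMT2B, against 6.86 ± 1.52 CPM in WT, and rose by 1.49 and 1.97 (adjusted p = 0.0013 and 0.0001). In sgKDM6A JDP2 had 10.4 ± 2.28 CPM, with a log2 change of 0.62 that was not called. CEBPB, which can pair with FOS and JUN proteins, had 86.6 ± 1.98 CPM in sgKMT2B, against 31.1 ± 5.69 CPM in the WT line (log2 change 1.49, adjusted p = 0.000194). ATF2, the usual partner of JUN at its own promoter, was not called, with 38.9 ± 3.25, 31.7 ± 0.573 and 40.5 ± 1.47 CPM in the knockouts and 37.2 ± 5.77 CPM in WT.

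Genes that AP-1 is known to regulate also moved in both directions, with more called as lower than as higher in each knockout. Of 46 on the list, 30 were tested. In sgKDM5C 2 rose and 8 fell, where 11.1% of all genes tested were called as higher and 11.5% as lower. In sgKDM6A 5 rose and 12 fell (12.6% and 14.6% of all genes). In sgKMT2B 6 rose and 10 fell (13.7% and 14.5% of all genes). Because the list was chosen with earlier results known, nothing is read from these counts. The median log2 changes were -0.13, -0.40 and -0.05. Several changed in opposite directions in different knockouts. TNC, a matrix glycoprotein, had 0.654 ± 0.306 CPM in sgKDM5C, 9.85 ± 0.366 CPM in sgKDM6A and 5.78 ± 0.866 CPM in sgKMT2B, against 3.21 ± 0.976 CPM in WT. It fell in sgKDM5C (log2 change -2.27, adjusted p = 0.000765) and rose in sgKDM6A (1.64, adjusted p = 0.000997) and sgKMT2B (0.87, adjusted p = 0.0357). CCND1, the G1 cyclin D1, had 11.6 ± 1.84, 53.2 ± 4.09 and 10.4 ± 0.394 CPM, against 16.1 ± 0.545 CPM in WT. It rose in sgKDM6A (1.72, adjusted p = 5.42e-06) and fell in sgKDM5C (-0.47, adjusted p = 0.0386) and sgKMT2B (-0.62, adjusted p = 0.00792). HMOX1, which degrades heme, had 29.98 ± 3.55, 68.2 ± 13.3 and 106 ± 11.6 CPM, against 44.9 ± 2.97 CPM in WT. It fell in sgKDM5C (-0.58, adjusted p = 0.0125) and rose in sgKDM6A (0.60, adjusted p = 0.00747) and sgKMT2B (1.24, adjusted p = 4.89e-05). SPHK1, which makes sphingosine phosphate, had 69.5 ± 5.5 CPM in sgKDM5C and 34.2 ± 1.53 CPM in WT (log2 change 1.02, adjusted p = 0.000118), and it was not called in the other knockouts. NQO1, a quinone reductase, rose in sgKDM5C (1.17, adjusted p = 0.00115) and sgKMT2B (0.81, adjusted p = 0.00751) and was not called in sgKDM6A (-0.54). MMP2, a gelatinase, fell in sgKDM6A (-2.02, adjusted p = 5.70e-06) and sgKMT2B (-0.65, adjusted p = 0.00955) and was not called in sgKDM5C (0.23). TGFB1, a growth factor, fell in sgKMT2B (-1.13, adjusted p = 2.45e-05), with 65.6 ± 8.85 CPM there and 143 ± 15.2 CPM in WT, and was not called in the other knockouts (0.05 and 0.03). CDKN2A was called as lower in sgKDM6A (382 ± 26.8 CPM, log2 change -0.63, SE 0.09), against 593 ± 52.6 CPM in WT. KRT18 was called as lower in sgKMT2B (62.9 ± 2.7 CPM, log2 change -0.63, SE 0.10), against 97.35 ± 4.29 CPM in WT.

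Factors that turn over AP-1 RNA and protein were the last list. Of 18, all tested, 3 were called in sgKDM5C, each lower, while 3 rose and 1 fell in sgKDM6A, and 4 rose and 2 fell in sgKMT2B. Beside 22.6%, 27.2% and 28.1% of all genes tested called, this count is no result about the list. ZFP36L1, which binds AU-rich elements and speeds the decay of early gene transcripts, had 42.1 ± 0.427, 35.5 ± 1.07 and 43.0 ± 8.82 CPM in sgKDM5C, sgKDM6A and sgKMT2B, against 81.0 ± 4.67 CPM in WT. It fell in each, with log2 changes of -0.94, -1.19 and -0.91 (adjusted p = 0.000436, 4.61e-05 and 0.000266).

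**Figure D4:**
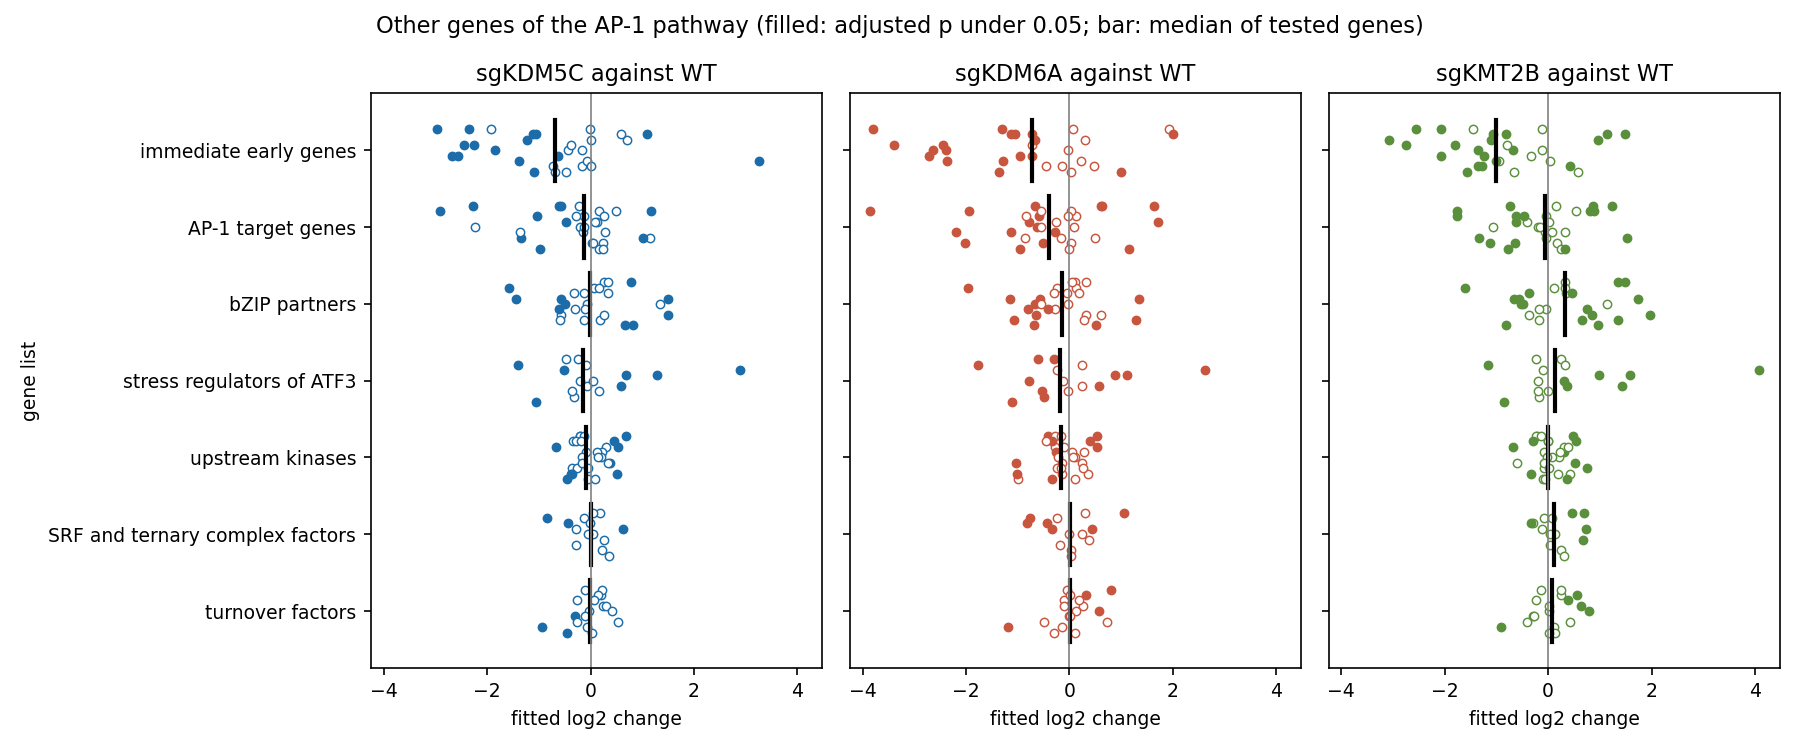
Fitted log2 change in sgKDM5C, sgKDM6A and sgKMT2B against WT of each tested gene on the pathway lists (1 point per gene, filled where called by edgeR's quasi-likelihood test), with a black bar at the list's median. The bar of the immediate early genes lies at -0.70, -0.72 and -1.01, and the other lists have called genes on both sides of 0 except the turnover factors in sgKDM5C.

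Markers of other cell types differed between the groups as well. The summed level of 5 epithelial markers was 146.9 to 148 CPM in sgKDM5C, 71.1 to 78.1 CPM in sgKDM6A and 315 to 336 CPM in sgKMT2B, and 174 to 176 CPM in WT. KRT8 averaged 51.2, 5.38 and 256 CPM in the knockouts and 60.6 CPM in WT. KRT18 averaged 89.3, 64.5 and 62.9 CPM in the knockouts and 97.35 CPM in WT. CDH1 averaged 5.68, 3.92 and 4.95 CPM, and 14.3 CPM in WT, and EPCAM 1.33, 0.595 and 1.29 CPM, and 2.75 CPM in WT. The higher epithelial sum in sgKMT2B thus came from KRT8, while KRT18, CDH1 and EPCAM were lower there than in WT. The summed level of 7 fibroblast markers was 31.1 to 33.7 CPM in sgKDM5C, 22.6 to 24.5 CPM in sgKDM6A and 81.0 to 94 CPM in sgKMT2B, and 54.2 to 55.8 CPM in WT. In sgKMT2B COL3A1 averaged 43.2 CPM, against 1.51 CPM in WT, while COL1A1 averaged 41.0 CPM there and 52.4 CPM in WT. The other fibroblast markers averaged at most 1.67 CPM in any group. The 6 kidney lineage markers summed to 113 to 125 CPM in sgKDM5C, 129.7 to 136 CPM in sgKDM6A and 146 to 147 CPM in sgKMT2B, and 136 to 147 CPM in WT. The 5 neuronal markers summed to 45.4 to 56.7, 45.7 to 56.3 and 16.6 to 17.8 CPM, and 41.8 to 45.8 CPM in WT. These sums joined moves in both directions. INA averaged 45.3, 31.6 and 9.99 CPM in the knockouts and 23.3 CPM in WT. NEFL averaged 4.97, 18.3 and 6.66 CPM, and 14.05 CPM in WT, and NEFM 0, 0 and 0.0394 CPM, and 5.65 CPM in WT. The 4 endothelial markers summed to at most 1.56 CPM in any library, and the 5 blood markers to between 3.17 and 8.32 CPM, with CD3E and HBB at 0 counts in each group. The part of these differences in the levels of the AP-1 genes was not tested.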

How the data were processed

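Libraries of poly(A) RNA were read in pairs on a NovaSeq instrument, per the labels' protocols. The authors deposited raw read counts per Ensembl gene, 1 column per library, made with STAR and HTSeq 0.11.2 on GRCh38, per the submitters' processing notes. Neither the annotation release of the counting nor its use of strand is given in these sources. Symbols came from a gene name table and GENCODE v29 (60596 of 60617 identifiers). Mitochondrial genes had 0 counts. Replicates differed by more than sampling noise (chi-square per degree of freedom 7.57 to 15.3), so each library counted once.

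The test was edgeR's quasi-likelihood one (glmQLFit and glmQLFTest, edgeR 4.0.16, R 4.3.3) on all 8 libraries, 1 coefficient per group, with TMM factors and filterByExpr, leaving 17527 genes and 4 residual degrees of freedom. P-values were adjusted over all genes (Benjamini-Hochberg) and called under 0.05. The SE is the log2 change over the square root of F. TPM used GENCODE exon lengths. The fit was tested on simulated data. The members and lists were chosen with earlier results of these data known. Named were all members, the targeted genes, up to 3 called genes per list and knockout with the smallest adjusted p, and up to 3 genes of highest r for members with at least 1 CPM and a log2 spread of 1. Genes named beside these (MAPK8, SRF, ATF2, EGR1, and listed genes in further knockouts) were added after their values were seen. Alternatives were DESeq2 1.42.0, other scalings and filters, the 2 groups alone, a replicate block and leaving out each library. Protein sequences were not used here. With n = 2 per group, SD values are rough.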

Additional observations from a re-analysis of the deposited data

How the results depend on the processing

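The falls of JUN, FOSL2 and ATF3 in each knockout against WT, and of JUND in sgKDM5C and sgKDM6A, kept their direction and passed the threshold under each alternative tried. Of 528 alternative values of members, 474 kept both their direction and their side of the threshold, 20 lost a call and 11 gained one. Another 23 changed sign, each of them called under neither setting. Against WT, leaving out 1 library gave 4 to 5 called members in sgKDM5C, 4 in sgKDM6A and 3 to 4 in sgKMT2B. In sgKDM5C against sgKDM6A, where 1 member was called, 3 were called with no filter on low counts, 2 with only the 2 groups fitted, 2 with the replicate block and 0 to 1 without 1 library. In sgKDM5C against sgKMT2B, where 2 were called, 1 was called with upper-quartile factors, 1 with a mean of at least 1 CPM, 1 with only the 2 groups, 0 with DESeq2 and 0 to 3 without 1 library. With no filter on low counts 3 were called there. In the fit with no filter, the adjusted p of JUN in sgKDM5C against WT fell by many orders of magnitude. Its log2 change was nearly the same (-2.499, against -2.501 in the main fit). Nothing is therefore read from the calls that this fit added. In sgKDM6A against sgKMT2B, where 3 were called, 4 were called with no filter and 2 without 1 library.

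The labels do not say what the replicate numbers mark, so no pairing was assumed. The deviations of replicate 1 correlated over genes at 0.336, 0.201 and 0.173 between knockouts and at -0.0246, -0.0262 and 0.0155 between a knockout and WT, a hint from the data, not the design, that the knockout libraries of a number have something in common. JUN, JUNB, FOSL2 and ATF3 were higher in replicate 2 of each knockout. With the replicate block, 5 members were called in sgKMT2B against WT, where 4 were called without it.

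Over all genes, the counts called without 1 library were 1841 to 3877 in sgKDM5C against WT (3969 with all), 2495 to 4711 in sgKDM6A (4759) and 2372 to 4787 in sgKMT2B (4931). Between knockouts they were 1878 to 2315 (3468), 2236 to 2583 (3882) and 2551 to 2900 (4356). A group then has 1 library, which is assumed to vary like the others. Of 462 alternative counts of the pathway lists 399 stayed within 1.5 times, and of 756 alternative values of listed genes 736 kept their call. Depth limits FOS and FOSL1, with 12 to 81 counts per library.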
